A study of Mus musculus with 16 samples.

Results

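The genes of cholesterol and fatty acid synthesis were followed across the 8 groups of a mouse microarray study of IRF8 and C/EBPalpha in myeloid progenitors. The set was a list of 36 genes, each taken with every array probe that carried its RefSeq accession or gene name, out of 20284 gene symbols on the array. It held 18 enzymes of the sterol pathway (here the sterol arm), 13 enzymes of fatty acid synthesis, elongation, desaturation and activation (the fatty acid arm), and 5 regulators. All 36 genes had a probe, with 49 probes in all. A gene was fitted in a system when its probe was well above background on both arrays of at least 1 group, by the scanner's own flag. That held for 34 genes in sorted progenitors, where Scd1 and Fads2 were not well above background in any group, and for 35 genes in the 32Dcl.3 cell line, where Scd1 was not.

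RNA came from sorted bone marrow cells and from a transduced cell line, with 2 arrays in each of 8 groups, 16 in all. The sorted cells were MDPs, the progenitors of monocytes and dendritic cells, and cMoPs, the progenitors of monocytes that follow them, both taken from mice with Irf8 intact (WT) or lost (Irf8KO); the sources used here do not give how the gene was disrupted, nor the animals' age or number. The cells of 32Dcl.3, an established mouse myeloid progenitor line grown in WEHI3B conditioned medium, all received a pair of MSCV retroviral vectors by spinoculation, one marked by human CD8 (hCD8t) and the other by puromycin resistance, and were analysed on day 3. The 4 groups carried both vectors empty, IRF8 in the CD8 vector, C/EBPalpha in the puromycin vector, or both factors. The series names 2 independent experiments, and no label says whether their cells came from separate animals or cultures, so the p-values measure only the spread between these samples, which may be technical.

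Both arms end in membrane lipid. Sterol synthesis joins acetyl units into mevalonate, isoprenoids and squalene, which is closed into lanosterol and trimmed to cholesterol, while fatty acid synthesis builds saturated chains from malonyl-CoA that elongases and desaturases then modify and acyl-CoA synthetases activate. The transcription factors SREBP2 and SREBP1, encoded by Srebf2 and Srebf1, drive genes of both arms: Scap escorts them out of the endoplasmic reticulum when sterol is scarce, and Insig1 and Insig2 hold them there when it is plentiful. Dividing myeloid progenitors need both kinds of lipid for new membrane.

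Promoter sequences are shown for 4 members whose responses to the 2 factors are described further on, so that their proximal elements can be seen next to the values: Hmgcs1, at the entry to the mevalonate pathway and higher without Irf8, Mvd and Tm7sf2, which rose with C/EBPalpha, and Acsl1, which rose most. They are RefSeq sequences of build GRCm38.p6, from 250 bases before to 50 bases after the start site, which is base 251. Hmgcs1 lies at chr13:119690101-119690400 on the plus strand, Mvd at chr8:122443373-122443672 on the minus strand, Tm7sf2 at chr19:6067801-6068100 on the minus strand, and Acsl1, shown at 1 of its 2 promoters, at chr8:46490716-46491015 on the plus strand. Capitals mark every match, on either strand, to the sterol regulatory element TCACNCCAC or to the CCAAT box. These 2 motifs do not overlap in the promoters shown. The Acsl1 promoter shown was chosen because it matches the sterol regulatory element, and the other Acsl1 promoter matches neither motif.
Hmgcs1: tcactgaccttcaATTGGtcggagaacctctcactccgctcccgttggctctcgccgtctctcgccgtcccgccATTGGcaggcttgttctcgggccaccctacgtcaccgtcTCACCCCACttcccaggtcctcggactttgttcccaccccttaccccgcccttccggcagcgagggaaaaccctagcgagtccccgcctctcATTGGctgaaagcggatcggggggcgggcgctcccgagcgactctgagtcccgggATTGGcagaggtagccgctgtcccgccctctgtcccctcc
Mvd: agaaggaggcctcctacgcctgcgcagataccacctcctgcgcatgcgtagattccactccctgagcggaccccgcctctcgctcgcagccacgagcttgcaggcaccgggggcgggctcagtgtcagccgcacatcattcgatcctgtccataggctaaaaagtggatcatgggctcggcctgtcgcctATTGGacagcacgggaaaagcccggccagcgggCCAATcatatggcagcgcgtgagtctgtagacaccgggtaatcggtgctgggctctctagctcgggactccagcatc
Tm7sf2: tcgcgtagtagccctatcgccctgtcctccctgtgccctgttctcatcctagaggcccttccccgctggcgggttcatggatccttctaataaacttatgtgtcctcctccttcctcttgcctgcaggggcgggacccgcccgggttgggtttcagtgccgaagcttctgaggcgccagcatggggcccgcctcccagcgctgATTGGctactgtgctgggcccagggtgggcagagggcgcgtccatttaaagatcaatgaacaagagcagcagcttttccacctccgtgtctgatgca
Acsl1: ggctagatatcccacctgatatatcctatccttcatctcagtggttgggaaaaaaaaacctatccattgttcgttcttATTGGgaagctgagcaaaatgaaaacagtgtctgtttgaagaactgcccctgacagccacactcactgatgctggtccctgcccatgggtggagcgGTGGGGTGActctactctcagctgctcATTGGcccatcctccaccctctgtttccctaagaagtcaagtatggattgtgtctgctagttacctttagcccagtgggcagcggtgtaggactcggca
Of the 36 members 30 had a promoter in the table used; Sqle, Scd1, Fads1, Fdps, Fdft1 and Scd2 had none. A member was counted when any of its promoters matched. The sterol regulatory element TCACNCCAC stood in 1.24% of all 32851 promoters, or at least 1 promoter of 1.44% of genes, and in 2 members, Hmgcs1 and Acsl1. The CCAAT box stood in 37.4% of promoters, or at least 1 promoter of 41.1% of genes, and in 24 of the 30 members: 14 of 15 in the sterol arm and 6 of 10 in the fatty acid arm. A C/EBP motif, TTGCNNAA, was found in 10.8% of promoters, or 12.2% of genes, and in the members Nsdhl and Dhcr7. An IRF motif of 2 GAAA repeats 2 bases apart was found in 3.44% of promoters, or 3.99% of genes, and in the member Ebp. The E-box CACGTG, which SREBP1 can also bind, was in 7.15% of promoters, or 8.09% of genes, and in 6 members. These letter matches describe the sequence and no more.

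Signal scale and labels bear on every value. The 75th percentile of the processed signal, to which each array was scaled, ranged from 67.8 to 81.0 in MDPs, from 456 to 568 in cMoPs and from 147 to 460.1 in 32Dcl.3 cells, where it was lowest with both factors. The arrays of a group correlated at 0.995 to 0.998. A separate slide held each of the 3 cell populations, so stage and slide cannot be told apart, and within the 32Dcl.3 slide each factor followed 1 direction of the array positions. Irf8 itself read 8.02 and 7.96 in WT and 7.44 and 7.43 in Irf8KO MDPs, and 7.33 and 7.34 in WT and 5.83 and 5.87 in Irf8KO cMoPs, lower in both knockouts and well above background throughout; the sources used here do not give whether its probe lies in a deleted part. In 32Dcl.3 cells neither the Irf8 nor the Cebpa probe was well above background in any group, so the arrays do not check the transduction labels. All 9 MDP and cMoP markers were well above background in every progenitor group, and Flt3, a marker of the earlier stage, read 3.94 and 3.97 in WT MDPs against -0.43 and -0.39 in WT cMoPs.

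Values are the log2 of a gene's signal over its array's 75th percentile, and changes are differences of these values with their standard error (SE), tested with limma over all genes fitted, 11963 in progenitors and 13337 in 32Dcl.3 cells. A change was called when its Benjamini-Hochberg adjusted p was under 0.05, and "rose" and "fell" are used of called changes, with 2 arrays against 2 in each. In these whole-population samples, fewer cells of a type and less RNA per cell cannot be told apart. An arm's level on an array is the median over its genes of the distance to the gene's mean over the system, less the same median over all genes.

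Loss of Irf8 left the sterol arm mixed in both progenitors. Hmgcs1, which makes HMG-CoA at the entry to the mevalonate pathway, rose in both, while Fdps, which makes farnesyl diphosphate, Sqle, which oxidises squalene, and Cyp51, which removes a methyl group from lanosterol, fell in both. In MDPs 3 of the 18 sterol genes rose and 8 fell, against a background of 51.5% of all genes called, 22.8% higher and 28.6% lower. In cMoPs 3 rose and 7 fell, where 54.1% of all genes were called, 23% higher and 31.1% lower, and the lower count was 4 without WT array 1 or either Irf8KO array and 5 without WT array 2. The share of the sterol arm called, 11 of 18 and 10 of 18, was near these backgrounds. Its median change was -0.10 in MDPs and -0.12 in cMoPs, beside -0.024 and -0.025 over all genes. In MDPs the arrays of the groups did not overlap for 28 of 34 members, against 72.5% of all genes. In cMoPs this held for 30 of 34 members, against 81.9% of all genes.

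Hmgcs1 read 4.16 and 4.21 in WT and 5.20 and 5.20 in Irf8KO MDPs, and 3.24 and 3.26 in WT and 3.91 and 4.05 in Irf8KO cMoPs. Its arrays did not overlap between genotypes at either stage, and it rose by 1.01 ± 0.046 (SE) in MDPs (adjusted p = 5.21e-08) and by 0.73 ± 0.046 in cMoPs (adjusted p = 3.42e-07). Fdps read 6.11 and 5.99 in WT and 5.10 and 4.96 in Irf8KO MDPs, and 5.45 and 5.40 in WT and 4.94 and 4.98 in Irf8KO cMoPs. It was lower on every Irf8KO array and fell by 1.02 ± 0.053 in MDPs (adjusted p = 1.26e-07) and by 0.46 ± 0.053 in cMoPs (adjusted p = 3.19e-05). Sqle read 3.35 and 3.17 in WT and 2.36 and 2.35 in Irf8KO MDPs, and 1.71 and 1.90 in WT and 1.04 and 1.16 in Irf8KO cMoPs, and its fall of 0.91 ± 0.078 in MDPs and 0.71 ± 0.078 in cMoPs again left no overlap between genotypes. Cyp51 read -0.65 and -0.84 in WT and -1.71 and -1.39 in Irf8KO MDPs, and -1.36 and -1.48 in WT and -2.40 and -2.29 in Irf8KO cMoPs, falling by 0.81 ± 0.17 in MDPs (adjusted p = 0.00255) and 0.93 ± 0.17 in cMoPs (adjusted p = 0.000899).

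Other steps of the sterol arm changed less evenly, or had too little signal to size. Lss, the cyclase that closes squalene oxide into lanosterol, read -1.66 and -1.31 in WT and -3.33 and -3.13 in Irf8KO MDPs, and -1.73 and -1.56 in WT and -2.23 and -1.79 in Irf8KO cMoPs. It was not well above background on the Irf8KO MDP arrays, so by this signal and scaling it was at least 2.16-fold lower there. The fold was computed against the faintest probe well above background, and normexp background correction gave a change smaller than that. The Lss change of -0.36 ± 0.23 in cMoPs did not pass. Sc5d, a desaturase of the last steps, read 1.61 and 1.47 in WT and 1.78 and 1.73 in Irf8KO MDPs, and 1.52 and 1.45 in WT and 2.28 and 2.39 in Irf8KO cMoPs, and rose by 0.22 ± 0.065 in MDPs but by 0.85 ± 0.065 in cMoPs. Nsdhl, a sterol dehydrogenase, read 0.44 and 0.48 in WT and 0.16 and -0.17 in Irf8KO MDPs, and 0.045 and -0.017 in WT and -0.22 and -0.38 in Irf8KO cMoPs. It fell by 0.46 ± 0.12 in MDPs, where its other probe differed by 0.092 the other way, and by 0.31 ± 0.12 in cMoPs, a call that ended when any 1 of the 4 cMoP arrays was left out (lowest and highest change -0.39 and -0.24). Hsd17b7, a ketosteroid reductase, read -1.50 and -1.18 in WT and -2.78 and -1.64 in Irf8KO MDPs, and -1.94 and -1.78 in WT and -2.12 and -1.87 in Irf8KO cMoPs. It fell by 0.87 ± 0.32 in MDPs with 1 Irf8KO array not well above background, and that call ended without Irf8KO array 1 (-0.31), without WT array 1 (-1.03) and without WT array 2 (-0.71).

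The fatty acid arm was mostly lower in Irf8KO MDPs and split in Irf8KO cMoPs. In MDPs 9 of the 11 fitted genes fell and 2 rose, where 51.5% of all genes were called, 22.8% higher and 28.6% lower. The median change was -0.34 against -0.024 over all genes, and the same 2 genes, Acsl1 and Elovl5, rose in cMoPs with Scd2. Elovl6, the elongase that turns palmitate into stearate, read 3.08 and 3.07 in WT and 2.22 and 2.31 in Irf8KO MDPs, and 2.06 and 2.03 in WT and 0.57 and 0.57 in Irf8KO cMoPs. It was the largest fall of the arm in cMoPs, at 1.47 ± 0.050 (adjusted p = 3.06e-09), and fell by 0.81 ± 0.050 in MDPs (adjusted p = 5.02e-07). Acsl1, an acyl-CoA synthetase of long chains, read 4.08 and 4.05 in WT and 4.91 and 4.87 in Irf8KO MDPs, and 3.56 and 3.56 in WT and 4.61 and 4.65 in Irf8KO cMoPs. With Elovl5 it went against the rest of the arm in MDPs, where all other fitted genes fell, and rose by 0.83 ± 0.035 in MDPs (adjusted p = 2.59e-08) and by 1.07 ± 0.035 in cMoPs (adjusted p = 2.18e-09). A second Acsl1 probe gave smaller differences, 0.44 in MDPs and 0.80 in cMoPs.

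Scd2, a desaturase that makes oleate and related chains, changed in opposite directions at the 2 stages. It read 5.47 and 5.38 in WT and 5.02 and 5.0 in Irf8KO MDPs, and 4.24 and 4.23 in WT and 4.91 and 4.93 in Irf8KO cMoPs. It fell by 0.42 ± 0.037 in MDPs and rose by 0.69 ± 0.037 in cMoPs, and the difference between the stages was 1.11 ± 0.053 (adjusted p = 3.61e-07). Fasn, the fatty acid synthase, read 0.071 and -0.0061 in WT and -0.64 and -0.79 in Irf8KO MDPs, and -0.92 and -0.94 in WT and -1.17 and -1.23 in Irf8KO cMoPs. It fell by 0.75 ± 0.11 in MDPs, and its change of -0.27 ± 0.11 in cMoPs did not pass. Acsl3, an acyl-CoA synthetase of lipid droplets, read -0.41 and -0.97 in WT and -1.50 and -1.72 in Irf8KO MDPs, and -1.63 and -1.60 in WT and -2.05 and -2.11 in Irf8KO cMoPs, with a fall of 0.92 ± 0.20 in MDPs and a change of -0.46 ± 0.20 in cMoPs that did not pass. Fads1, a desaturase of polyunsaturated chains, read 0.13 and 0.20 in WT and -0.27 and -0.37 in Irf8KO MDPs, and -0.55 and -0.56 in WT and -0.69 and -0.66 in Irf8KO cMoPs, falling by 0.49 ± 0.097 in MDPs and differing by -0.12 ± 0.097, short of the threshold, in cMoPs.

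In cMoPs the arm had 3 genes higher, 4 lower and 4 that did not pass, where 54.1% of all genes were called, 23% higher and 31.1% lower. The lower count was 2 without WT array 2 or Irf8KO array 2 and 3 without either of the other 2 cMoP arrays. The median was -0.14 against -0.025 over all genes. Elovl5, an elongase of polyunsaturated chains, rose by 0.69 ± 0.042 there and by 0.29 ± 0.042 in MDPs. Elovl1, which extends very long chains, fell by 0.25 ± 0.032, and Acly, which supplies cytosolic acetyl-CoA, fell by 0.16 ± 0.048. The Acly call ended without WT array 2 (-0.12), without Irf8KO array 1 (-0.15) and without Irf8KO array 2 (-0.17).

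Among the regulators Srebf2 was the member that fell at both stages on the probe used. It read -0.21 and -0.0074 in WT and -0.86 and -0.56 in Irf8KO MDPs, and fell by 0.60 ± 0.12 (adjusted p = 0.00206). In cMoPs it read 0.16 and 0.17 in WT and -0.18 and -0.24 in Irf8KO and fell by 0.37 ± 0.12, but a second probe was 0.44 higher, the mean over both probes was 0.034, and the call ended without any 1 of the 4 cMoP arrays (-0.40 to -0.34). Scap read 4.78 and 4.77 in WT and 4.55 and 4.56 in Irf8KO MDPs, and 4.42 and 4.41 in WT and 4.35 and 4.37 in Irf8KO cMoPs. It fell by 0.22 ± 0.032 in MDPs, and its -0.057 ± 0.032 in cMoPs did not pass. Srebf1 read -0.76 and -1.37 in WT and -0.91 and -1.15 in Irf8KO MDPs, and -1.57 and -1.63 in WT and -1.43 and -1.72 in Irf8KO cMoPs, with overlapping arrays and changes of 0.031 ± 0.21 and 0.020 ± 0.21. Insig1 differed by -0.26 ± 0.12 and -0.0060 ± 0.12, neither passing. Insig2 rose by 0.29 ± 0.10 in MDPs, a call that ended, among other settings, with array-median scaling (0.20) and without either WT array (0.29 and 0.30) or Irf8KO array 1 (0.21), and differed by 0.13 ± 0.10 in cMoPs.

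**Figure D1:**
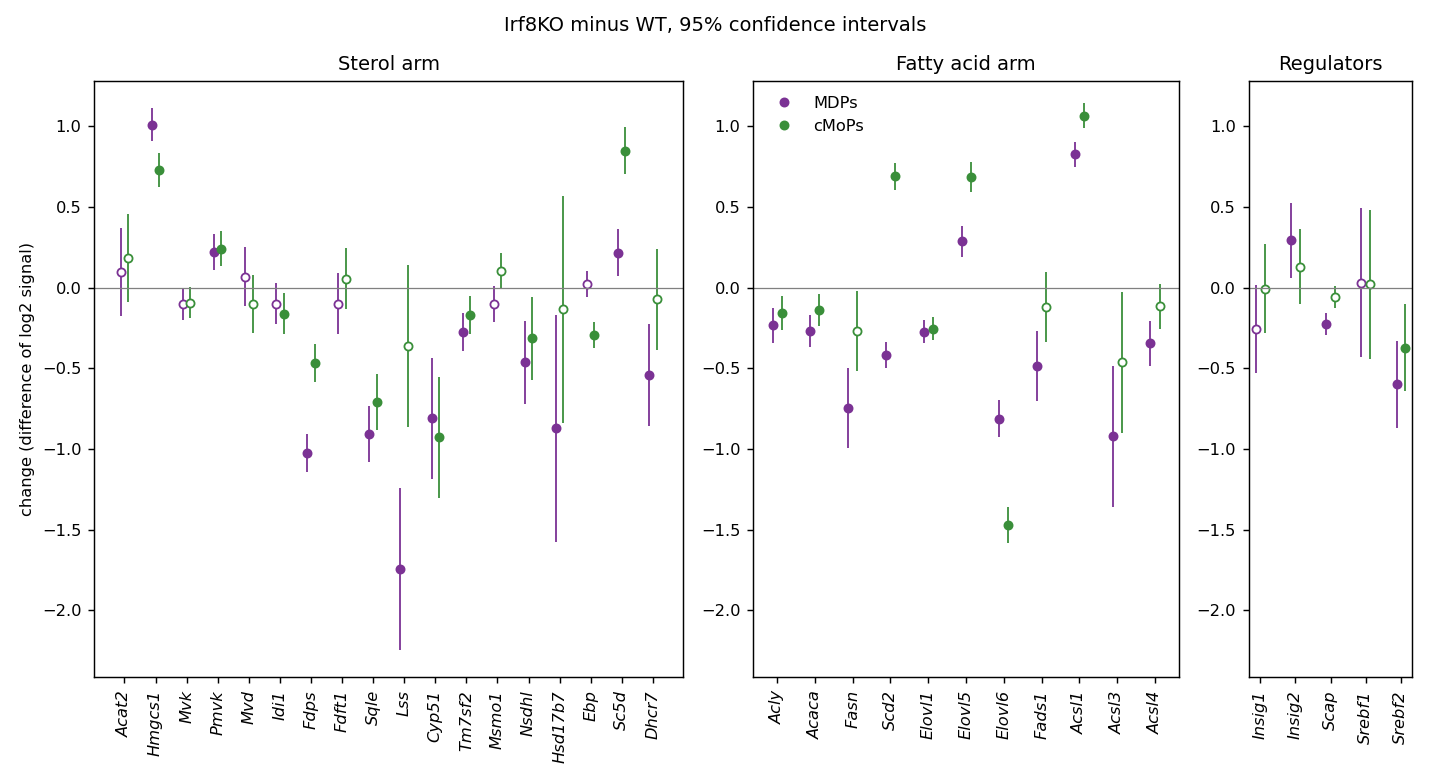
Change of each fitted member, Irf8KO minus WT, in MDPs (purple) and cMoPs (green), as a difference of log2 signal, with 95% confidence intervals from limma (2 arrays against 2); filled points were called and open ones were not. Hmgcs1 and Acsl1 lie above 0 and Fdps, Sqle, Cyp51 and Elovl6 below 0 at both stages, while Scd2 changes side.

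The test of the difference between the stages, the cMoP change minus the MDP change, called 10 members, 3 higher and 2 lower in the sterol arm and 3 higher and 1 lower in the fatty acid arm, with 24.9% of all genes called. The sterol count of 3 higher was 5 without Irf8KO MDP array 2, and the fatty acid count of 3 higher was 5 without WT MDP array 2 or Irf8KO MDP array 1. Besides Scd2, Elovl6 differed by -0.66 ± 0.071 (adjusted p = 9.67e-05), Sc5d by 0.63 ± 0.092 (adjusted p = 0.000692) and Fdps by 0.56 ± 0.075 (adjusted p = 0.000421), so the Elovl6 and Sc5d changes were larger in cMoPs and the Fdps change larger in MDPs. Ebp, a sterol isomerase, differed by -0.32 ± 0.051, with 0.024 ± 0.036 in MDPs and a fall of 0.29 ± 0.036 in cMoPs. Hmgcs1 differed by -0.28 ± 0.066, Elovl5 by 0.40 ± 0.060 and Acsl1 by 0.24 ± 0.049; array-median scaling ended the Elovl5 (0.18) and Acsl1 (0.019) calls, and normexp background correction the Hmgcs1 one (-0.13). Lss differed by 1.38 ± 0.32 with its Irf8KO MDP arrays not well above background, and by 0.080, no longer called, with normexp correction. Scap differed by 0.17 ± 0.045, a value that turned to -0.053 with array-median scaling. Of the other regulators, Srebf1 differed by -0.011 ± 0.29, Srebf2 by 0.23 ± 0.17, Insig1 by 0.25 ± 0.17 and Insig2 by -0.16 ± 0.15, none passing.

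Genes of other cell types and of the cell cycle moved with genotype. The summed scaled signal of 8 erythroid genes was 15.4 to 16.0 in WT and 0.67 in both Irf8KO MDP arrays, where none of the 8 was well above background, and the 8 basophil, mast cell and eosinophil genes went from 17.2 to 17.7 down to 3.62 to 3.89. In cMoPs the erythroid sum was 8.27 to 8.35 in WT and 1.03 to 1.14 in Irf8KO. The basophil, mast cell and eosinophil sum was 6.46 to 6.59 in WT and 7.25 to 7.86 in Irf8KO cMoPs, but its genes were split. Of its 7 fitted genes 2 rose and 4 fell there, and of the 4 well above background on at least 1 cMoP array 2 rose and 2 fell. The summed signal of 10 neutrophil genes was 10.8 to 12.8 in WT and 98.2 to 100.3 in Irf8KO MDPs, and 36.9 to 37.1 in WT and 580.8 to 602.8 in Irf8KO cMoPs, with 8 of 8 fitted genes higher in cMoPs and 3 higher and 3 lower in MDPs. The B cell, T and NK, megakaryocyte and macrophage sums were higher on both Irf8KO arrays at each stage. Of the fitted megakaryocyte genes 1 rose and 1 fell at each stage. B cell genes went from 36.4 to 37.3 in WT up to 50.7 to 51.6 in Irf8KO MDPs. T and NK genes went from 61.5 to 62.3 in WT up to 120.8 to 124.7 in Irf8KO cMoPs. In cMoPs 16 of 19 fitted cell cycle genes fell and 1 rose, and in MDPs 9 of 19 fell and 3 rose. Of all genes 31.1% were lower in cMoPs and 28.6% in MDPs. The part of the cell type and cell cycle genes in the changes of the lipid genes was not tested. Scaling moved the counts: with array-median scaling, which put the median of all genes at -0.12 in MDPs and -0.34 in cMoPs, the sterol arm had 1 higher and 9 lower in MDPs and 2 and 13 in cMoPs, and the fatty acid arm 3 and 8 in cMoPs. With the percentile taken over detected probes the sterol arm had 4 higher and 4 lower in cMoPs, and with array-median scaling the stage difference had 1 higher and 1 lower in the fatty acid arm. Normexp correction shrank the changes of dim genes in MDPs, to -0.32 for Lss, -0.29 for Cyp51, -0.11 for Hsd17b7, -0.32 for Acsl3, -0.23 for Fads1, -0.48 for Fasn and -0.36 for Srebf2.

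The neighbouring lipid genes, taken from lists around the pathway, rose more often than they fell in efflux and storage. The background was 51.5% of all genes called in MDPs, 22.8% higher and 28.6% lower, and 54.1% in cMoPs, 23% higher and 31.1% lower. Counted in either direction, SREBP processing at both stages and fatty acid oxidation in MDPs lay below it, and the isoprenoid branch in cMoPs lay near it. The other lists lay above it. In Irf8KO MDPs 4 of 6 fitted genes of LXR signalling and sterol efflux rose and none fell, and in cMoPs 5 rose and none fell, 1 of the 5, Abca1, not being well above background in either cMoP group. Nr1h3, which encodes LXRalpha, rose by 1.34 ± 0.16 and by 1.63 ± 0.16, and Abcg1, a sterol exporter, rose by 1.18 ± 0.048 in cMoPs. Of 10 genes of glycerolipid synthesis and storage 6 rose in MDPs and 5 in cMoPs, led by Dgat2, which makes triglyceride, at 2.18 ± 0.059 and 2.89 ± 0.059. Of 13 other synthesis enzymes 7 fell in MDPs and 8 in cMoPs, with the elongase Elovl7 falling by 2.63 ± 0.12 and 2.87 ± 0.12. Of 11 genes of sterol uptake and transport 2 rose and 7 fell in MDPs, where the sterol carrier Stard4 fell by 0.81 ± 0.070, and 2 rose and 5 fell in cMoPs, where Nceh1, which hydrolyses cholesteryl ester, fell by 0.56 ± 0.049. Of 9 genes of SREBP processing and turnover 1 rose and 2 fell at each stage, with Erlin1 falling by 0.47 ± 0.038 and 0.37 ± 0.038. Of 10 genes of the isoprenoid branch 2 rose and 4 fell in MDPs and none rose and 5 fell in cMoPs, and Pdss1, of ubiquinone synthesis, fell by 0.46 ± 0.050 in cMoPs. Fatty acid oxidation had 4 of 12 genes higher and 1 lower in MDPs, led by Cpt1a at 0.62 ± 0.037, and 2 higher and 7 lower in cMoPs, with Hadhb falling by 0.37 ± 0.034.

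In 32Dcl.3 cells C/EBPalpha separated the arms. Sterol enzymes were raised more often than lowered, 9 against 6 of 18, and fatty acid enzymes lowered more often than raised, 8 against 2 of 12, where 78.8% of all genes were called, 31.6% higher and 47.1% lower. The median change was 0.18 in the sterol arm and -0.67 in the fatty acid arm, beside -0.14 over all genes, so the arms lay 0.86 apart. Arrays did not overlap between the groups for 32 of 35 members, against 89.5% of all genes. Mvd, which makes isopentenyl diphosphate, Tm7sf2, a sterol reductase, Acat2, which joins acetyl-CoA units, and Fdps rose most in the sterol arm, and Acsl1 in the fatty acid arm.

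Mvd read 2.40 and 2.40 with empty vectors, 3.27 and 3.31 with C/EBPalpha, 2.16 and 2.18 with IRF8 and 2.49 and 2.55 with both factors. The C/EBPalpha arrays stood above all others, and Mvd rose by 0.89 ± 0.035 (adjusted p = 2.29e-10). Tm7sf2 read 1.63 and 1.67 with empty vectors, 2.52 and 2.46 with C/EBPalpha, 1.51 and 1.40 with IRF8 and 1.28 and 1.45 with both factors, again highest with C/EBPalpha alone, where it rose by 0.84 ± 0.059 (adjusted p = 5.22e-08). Acat2 read -0.16 and -0.084 with empty vectors, 0.64 and 0.70 with C/EBPalpha, -0.21 and -0.21 with IRF8 and 0.024 and 0.092 with both factors, a rise of 0.79 ± 0.061 with C/EBPalpha (adjusted p = 1.28e-07). Fdps read 6.17 and 6.15 with empty vectors, 6.84 and 6.86 with C/EBPalpha, 5.87 and 5.87 with IRF8 and 5.65 and 5.68 with both factors, and rose by 0.69 ± 0.026 with C/EBPalpha (adjusted p = 1.63e-10). For all 4 genes the arrays with both factors lay below those with C/EBPalpha alone, with no overlap.

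Not all of the pathway followed. Idi1, which interconverts the 2 basic isoprenoid units, read 5.0 and 5.0 with empty vectors, 3.92 and 3.95 with C/EBPalpha, 4.86 and 4.88 with IRF8 and 3.26 and 3.28 with both factors. It fell with C/EBPalpha by 1.06 ± 0.029 (adjusted p = 8.19e-12) although Mvd before it and Fdps after it rose. Lss read 1.61 and 1.61 with empty vectors, 1.01 and 0.99 with C/EBPalpha, 1.11 and 1.18 with IRF8 and 0.56 and 0.41 with both factors, falling by 0.61 ± 0.056. Hmgcs1 read 4.39 and 4.48 with empty vectors, 4.38 and 4.39 with C/EBPalpha, 4.40 and 4.47 with IRF8 and 4.19 and 4.32 with both factors, where the arrays with empty vectors and with C/EBPalpha overlapped and the change of -0.048 ± 0.044 did not pass.

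In the fatty acid arm Acsl1 read 2.58 and 2.65 with empty vectors, 4.90 and 4.81 with C/EBPalpha, 2.26 and 2.25 with IRF8 and 2.75 and 2.74 with both factors. Its rise of 2.24 ± 0.038 with C/EBPalpha (adjusted p = 1.76e-13) was the largest change of any member in that comparison and opposed the arm. Elovl6 read 3.74 and 3.77 with empty vectors, 2.19 and 2.10 with C/EBPalpha, 3.29 and 3.32 with IRF8 and 1.07 and 1.02 with both factors, a fall of 1.61 ± 0.040 with C/EBPalpha (adjusted p = 4.24e-12). Fasn read 2.10 and 2.03 with empty vectors, 1.10 and 1.02 with C/EBPalpha, 1.73 and 1.66 with IRF8 and 0.50 and 0.55 with both factors, a fall of 1.0 ± 0.051. Acsl3 read 1.15 and 1.16 with empty vectors, -0.088 and -0.075 with C/EBPalpha, 0.89 and 0.88 with IRF8 and -0.61 and -0.67 with both factors, a fall of 1.23 ± 0.054. These 3 genes were lowest with both factors. Fads2, which desaturates polyunsaturated chains, read 0.31 and 0.32 with empty vectors, -0.66 and -0.71 with C/EBPalpha, -0.39 and -0.47 with IRF8 and -2.17 and -2.27 with both factors, a fall of 1.0 ± 0.078. Scd2 read 5.98 and 6.01 with empty vectors, 5.08 and 5.08 with C/EBPalpha, 5.37 and 5.42 with IRF8 and 5.17 and 5.19 with both factors and fell by 0.91 ± 0.028, and it did not go lower with both factors. With array-median scaling, which put the median of all genes at -0.45, C/EBPalpha gave 5 higher and 8 lower in the sterol arm and 1 and 10 in the fatty acid arm; with quantile normalization, the deposited series values or the percentile over detected probes it gave 11 and 4, and 4 and 8. Without the filter on dim probes the sterol median less that of all genes was -0.044, against 0.32 with the filter.

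**Figure D2:**
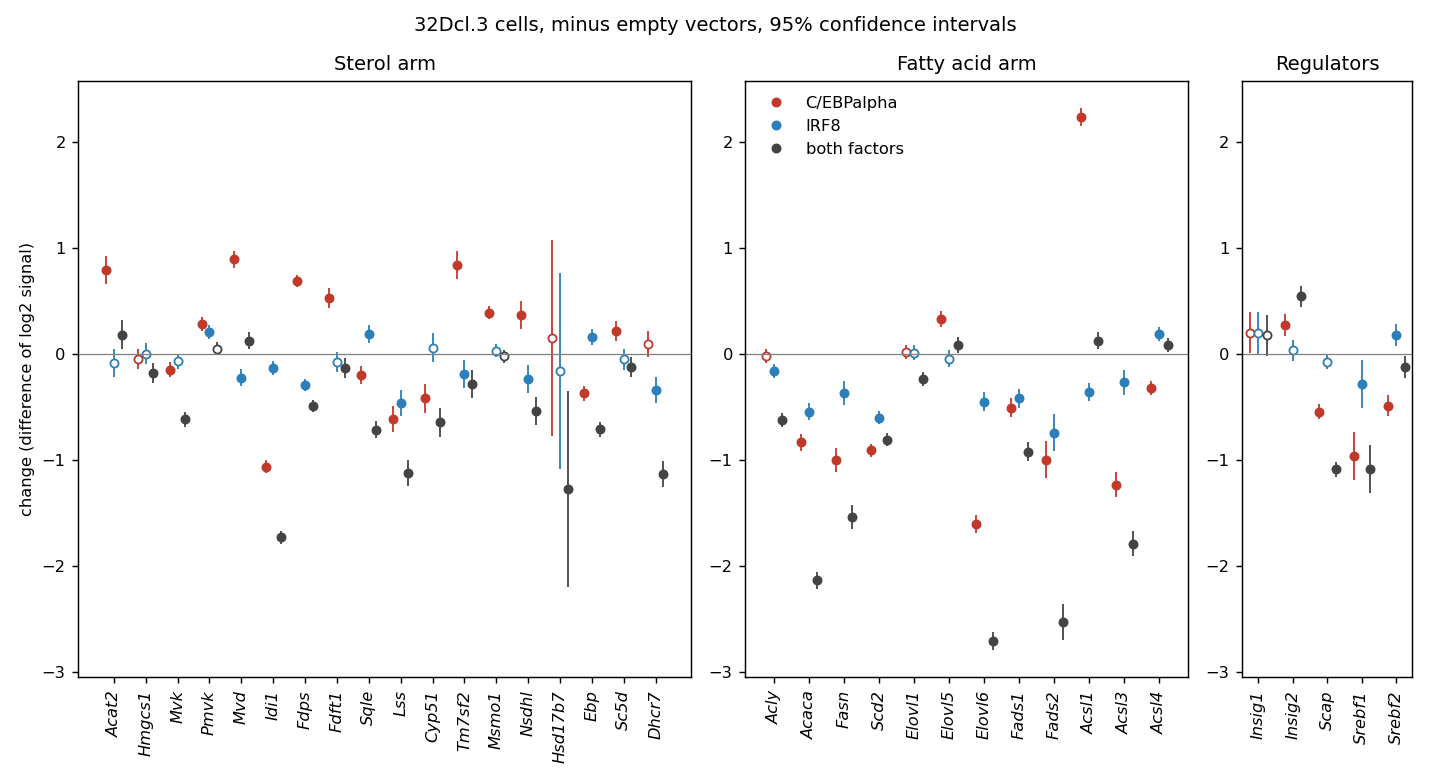
Change of each fitted member in 32Dcl.3 cells with C/EBPalpha (red), IRF8 (blue) or both factors (dark grey) minus the empty vectors, as a difference of log2 signal, with 95% confidence intervals from limma (2 arrays against 2); filled points were called and open ones were not. With C/EBPalpha the sterol genes spread to both sides of 0 and most fatty acid genes lie below it except Acsl1 at 2.24; with both factors Elovl6, Fads2 and Acaca are the lowest.

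IRF8 alone was set against the same empty-vector arrays as C/EBPalpha and both factors, and 10 genes of each arm were called. Of 12 fatty acid genes 9 fell and 1, Acsl4, rose, and of 18 sterol genes 3 rose and 7 fell, where 48.1% of all genes were called, 22.7% higher and 25.4% lower. The medians were -0.37 in the fatty acid arm and -0.080 in the sterol arm, beside -0.031 over all genes. Overlap between the groups was absent for 31 of 35 members, against 75.2% of all genes. Fads2 fell by 0.74 ± 0.078 (adjusted p = 9.52e-06), Scd2 by 0.60 ± 0.028 (adjusted p = 6.04e-09) and Elovl6 by 0.45 ± 0.040 (adjusted p = 2.21e-06). Acaca, the carboxylase that makes malonyl-CoA, read 5.13 and 5.12 with empty vectors, 4.26 and 4.33 with C/EBPalpha, 4.59 and 4.57 with IRF8 and 3.04 and 2.94 with both factors, and fell by 0.54 ± 0.037 with IRF8 (adjusted p = 2.00e-07). Fads1 read 2.81 and 2.72 with empty vectors, 2.26 and 2.25 with C/EBPalpha, 2.38 and 2.32 with IRF8 and 1.85 and 1.83 with both factors and fell by 0.42 ± 0.041, and Fasn fell by 0.37 ± 0.051. In the sterol arm Lss fell by 0.46 ± 0.056, Fdps by 0.29 ± 0.026, Mvd by 0.22 ± 0.035 and Nsdhl by 0.23 ± 0.060, and Pmvk, a kinase of the mevalonate pathway, rose by 0.21 ± 0.029, Sqle by 0.19 ± 0.039 and Ebp by 0.16 ± 0.034. Dhcr7, which makes cholesterol in the last step of one branch, read 1.20 and 1.17 with empty vectors, 1.29 and 1.26 with C/EBPalpha, 0.85 and 0.83 with IRF8 and 0.12 and -0.025 with both factors and fell by 0.34 ± 0.056 with IRF8 (adjusted p = 0.000342).

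With both factors the 2 arms were low together. Of 18 sterol genes 14 fell and 2 rose, and of 12 fatty acid genes 9 fell and 3 rose, where 84.8% of all genes were called, 38% higher and 46.8% lower. The medians were -0.52 and -0.87, beside -0.096 over all genes. Among the 17 sterol genes well above background on all 8 arrays, which leaves out Hsd17b7, 13 fell and 2 rose. Arrays with both factors and with empty vectors did not overlap for 35 of 35 members, against 91.9% of all genes. Elovl6 fell by 2.71 ± 0.040 (adjusted p = 1.99e-14), Fads2 by 2.53 ± 0.078 (adjusted p = 1.18e-11), Acaca by 2.14 ± 0.037 (adjusted p = 7.39e-14), Acsl3 by 1.79 ± 0.054, Fasn by 1.54 ± 0.051 and Fads1 by 0.92 ± 0.041. In the sterol arm Idi1 fell by 1.73 ± 0.029 (adjusted p = 5.25e-14), Dhcr7 by 1.14 ± 0.056 and Lss by 1.12 ± 0.056. Sqle read 4.22 and 4.27 with empty vectors, 4.09 and 4.01 with C/EBPalpha, 4.47 and 4.40 with IRF8 and 3.51 and 3.56 with both factors, and Ebp read 5.31 and 5.41 with empty vectors, 4.99 and 4.99 with C/EBPalpha, 5.53 and 5.52 with IRF8 and 4.65 and 4.65 with both factors. Both were lowest with both factors, falling by 0.71 ± 0.039 and 0.71 ± 0.034. The 2 sterol genes that rose, Acat2 at 0.18 ± 0.061 and Mvd at 0.13 ± 0.035, did so by small amounts. Hsd17b7 read -4.81 and -4.67 with empty vectors, -5.03 and -4.14 with C/EBPalpha, -4.82 and -4.99 with IRF8 and -6.16 and -5.88 with both factors and was well above background with empty vectors only, so no size is given for its change, which was called lower but turned to 0.87 with normexp background correction.

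The counts with both factors moved with single arrays and with the scaling. Without empty-vector array 1 no fatty acid gene and 1 sterol gene rose, the same counts as with normexp correction, and 1 sterol gene rose without array 2 of both factors. With array-median scaling, which put the median of all genes at -0.75, 18 sterol genes and 12 fatty acid genes fell and none rose. With quantile normalization, the deposited series values or the percentile over detected probes 7 sterol genes rose and 10 fell, and 3 fatty acid genes rose and 8 fell. The arm medians relative to all genes kept their sign in these 4 scalings, at -0.16 in the sterol arm with quantile normalization, against -0.42 in the fit reported.

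Adding IRF8 to C/EBPalpha lowered the sterol arm throughout. Against C/EBPalpha alone 18 of 18 sterol genes were lower, 17 of them well above background in at least 1 of these groups, where 72.4% of all genes were called, 34.4% higher and 37.9% lower. The median change was -0.56 in the sterol arm and -0.55 in the fatty acid arm, where 10 of 12 fell and 2 rose, beside 0.0016 over all genes. The groups stood apart, with no overlap, for 33 of 35 members, against 84.6% of all genes. Dhcr7 fell by 1.23 ± 0.056 (adjusted p = 1.52e-09), Fdps by 1.18 ± 0.026 (adjusted p = 2.80e-12), Tm7sf2 by 1.13 ± 0.059 (adjusted p = 5.50e-09) and Mvd by 0.77 ± 0.035 (adjusted p = 1.65e-09). Nsdhl read 1.26 and 1.28 with empty vectors, 1.54 and 1.73 with C/EBPalpha, 1.02 and 1.05 with IRF8 and 0.76 and 0.70 with both factors, a fall of 0.91 ± 0.060. Acsl1 lost nearly all of its rise, with a fall of 2.11 ± 0.038 (adjusted p = 6.04e-13). Fads2 fell by 1.53 ± 0.078, Acaca by 1.30 ± 0.037, Elovl6 by 1.11 ± 0.040, Acly by 0.61 ± 0.030 and Acsl3 by 0.56 ± 0.054. No sterol gene was called higher in any of the 15 alternatives tried for this comparison, and 16 to 18 were called lower. With array-median scaling 0 fatty acid genes were higher and 11 lower.

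**Figure D3:**
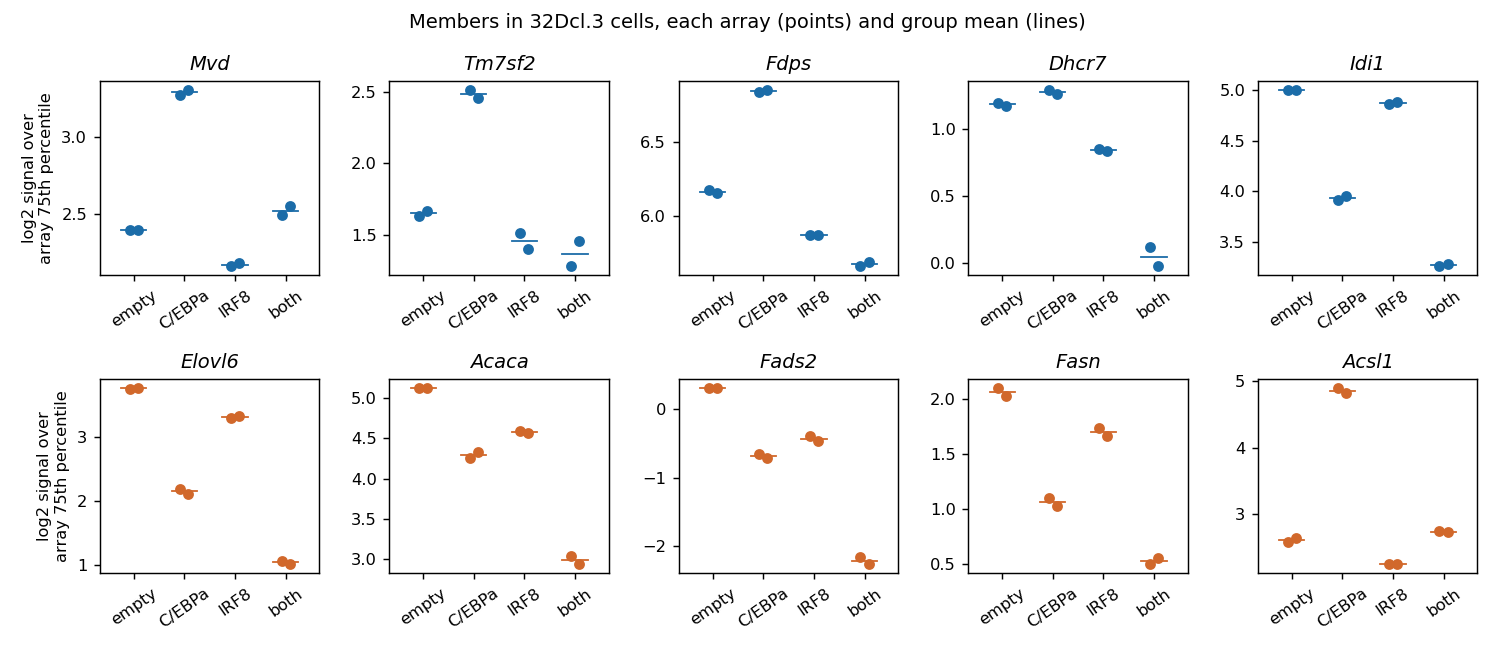
Log2 signal over the array's 75th percentile of 10 members in 32Dcl.3 cells (upper row sterol arm, lower row fatty acid arm); points are single arrays and lines the mean of 2 arrays, and each panel has its own vertical range. Mvd, Tm7sf2, Fdps and Acsl1 peak with C/EBPalpha alone, and Dhcr7, Idi1, Elovl6, Acaca, Fads2 and Fasn are lowest with both factors.

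The interaction of the factors, the change with both minus the sum of the changes with each, was negative for most of the sterol arm. It called 15 of 18 sterol genes lower and none higher, and 8 of 12 fatty acid genes lower and 2 higher, where 55.7% of all genes were called, 23.8% higher and 31.9% lower. The medians were -0.53 and -0.28, beside -0.014 over all genes. Tm7sf2 had an interaction of -0.93 ± 0.084 (adjusted p = 1.87e-06), Fdps of -0.89 ± 0.037 (adjusted p = 2.71e-09), Dhcr7 of -0.89 ± 0.080 (adjusted p = 1.83e-06), Sqle of -0.71 ± 0.054 and Nsdhl of -0.67 ± 0.085. Tm7sf2 and Fdps had risen with C/EBPalpha alone, whereas Dhcr7 had not passed there and Sqle had fallen. Fdft1, the squalene synthase, read 2.0 and 1.94 with empty vectors, 2.49 and 2.50 with C/EBPalpha, 1.85 and 1.93 with IRF8 and 1.82 and 1.85 with both factors and had -0.58 ± 0.060. A second Fdft1 probe, well above background in 1 of the 4 groups, had 1.71, and the mean over both 0.56.

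In the fatty acid arm the interaction was largest for Acsl1, at -1.75 ± 0.053 (adjusted p = 3.19e-10), followed by Fads2 at -0.79 ± 0.11 (-0.034 and not called with normexp correction), Acaca at -0.76 ± 0.052, Elovl6 at -0.66 ± 0.057 and Acly at -0.44 ± 0.042. Other probes of Acaca had -0.16 and -0.40, the latter well above background in 3 of the 4 groups. Another Acly probe had -0.039. Scd2 went the other way, at 0.70 ± 0.039 (adjusted p = 3.16e-08): each factor alone lowered it, and both together lowered it no further than C/EBPalpha. In the 18 alternatives tried, 14 to 18 sterol genes had a lower call and none a higher one. In the fatty acid arm array-median scaling gave 1 higher and 10 lower.

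**Figure D4:**
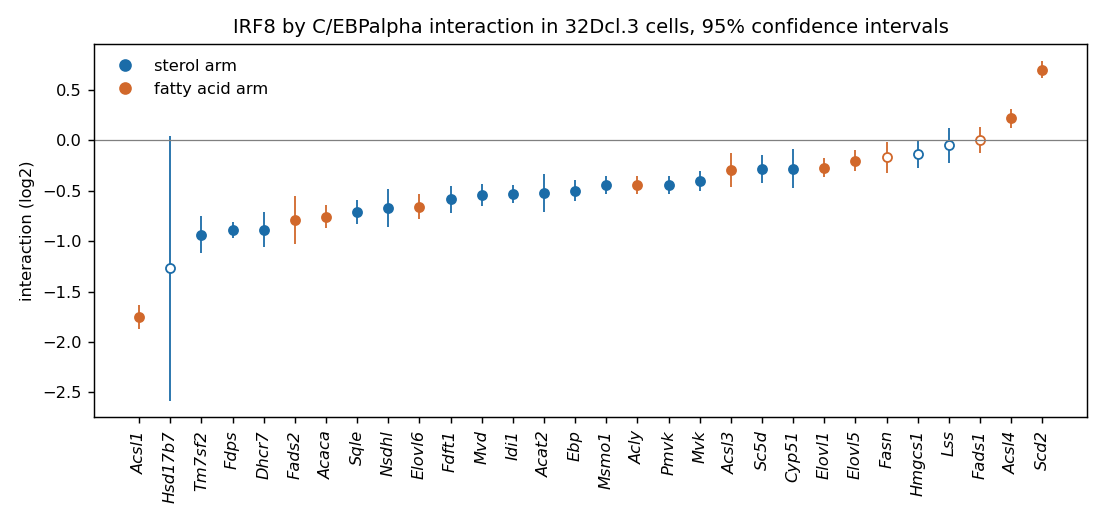
Interaction of IRF8 and C/EBPalpha for each fitted member of the sterol arm (blue) and the fatty acid arm (orange), sorted by value, on the log2 scale with 95% confidence intervals from limma over 8 arrays; filled points were called and open ones were not. All 18 sterol genes lie below 0, the lowest being Hsd17b7, which was not called and was well above background with empty vectors only, so its position gives no size; the other sterol genes run from -0.93 for Tm7sf2 to -0.046 for Lss, and the fatty acid genes run from -1.75 for Acsl1 to 0.70 for Scd2.

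Adding C/EBPalpha to IRF8 and setting the factors against each other used the same arrays again, as the comparisons with the empty vectors share that group. Against IRF8 alone both factors gave 2 sterol genes higher and 12 lower (11 without Hsd17b7, not well above background in either group) and 2 fatty acid genes higher and 10 lower, where 82.2% of all genes were called, 36.1% higher and 46.1% lower. The fatty acid count higher was 1 without IRF8 array 1, without array 1 of both factors, or with normexp correction. No overlap was seen between the groups for 31 of 35 members, against 90.9% of all genes. Elovl6 fell by 2.26 ± 0.040, Fads2 by 1.79 ± 0.078, Idi1 by 1.60 ± 0.029, Acaca by 1.59 ± 0.037, Acsl3 by 1.52 ± 0.054 and Fasn by 1.17 ± 0.051, each without overlap between the groups. Sqle fell by 0.91 ± 0.039, Ebp by 0.87 ± 0.034, Dhcr7 by 0.79 ± 0.056, Cyp51 by 0.70 ± 0.063 and Fads1 by 0.51 ± 0.041. With array-median scaling (median of all genes -0.78) 18 sterol and 12 fatty acid genes fell and none rose, and with quantile normalization or the deposited series values 8 sterol genes rose and 9 fell and 4 fatty acid genes rose and 7 fell. The sterol median less that of all genes was -0.16 and turned to 0.048 with quantile normalization. The percentile over detected probes gave 9 and 7 in the sterol arm.

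IRF8 against C/EBPalpha gave medians on opposite sides of 0, -0.29 in the sterol arm and 0.27 in the fatty acid arm. The median over all genes was 0.16, so the fatty acid arm lay close to it. Of the sterol genes 6 were higher and 10 lower with IRF8, and of the fatty acid genes 7 were higher and 3 lower, where 76.5% of all genes were called, 48.7% higher and 27.9% lower. Between these groups no overlap was seen for 32 of 35 members, against 88.3% of all genes. Mvd was lower by 1.12 ± 0.035, Tm7sf2 by 1.03 ± 0.059, Fdps by 0.98 ± 0.026, Acat2 by 0.88 ± 0.061 and Fdft1 by 0.60 ± 0.042, and Idi1 was higher by 0.93 ± 0.029. Acsl1 was lower by 2.60 ± 0.038 and Elovl5 by 0.37 ± 0.035, and Elovl6 was higher by 1.16 ± 0.040, Acsl3 by 0.97 ± 0.054, Fasn by 0.63 ± 0.051 and Acsl4 by 0.51 ± 0.030. Array-median scaling gave 8 higher and 6 lower in the sterol arm and 10 and 1 in the fatty acid arm, and ended the Elovl5 call (-0.024). Quantile normalization gave 4 and 12, and 6 and 5, and the percentile over detected probes 4 and 12, and 5 and 5. The fatty acid median less that of all genes was 0.11, and turned to -0.041 with quantile normalization and -0.035 in the deposited series values. The fatty acid arm's level on single arrays was 0.061 and 0.057 with IRF8, slightly below the 0.078 and 0.077 with C/EBPalpha.

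Scap and Srebf1 fell further than the other regulators with both factors. Scap read 4.74 and 4.77 with empty vectors, 4.23 and 4.18 with C/EBPalpha, 4.70 and 4.65 with IRF8 and 3.65 and 3.68 with both factors, falling by 0.55 ± 0.033 with C/EBPalpha (adjusted p = 1.03e-08) and by 1.09 ± 0.033 with both factors (adjusted p = 8.93e-12), while its -0.076 ± 0.033 with IRF8 did not pass. Its interaction was -0.47 ± 0.046 (adjusted p = 4.14e-06), and with both factors it was 0.54 ± 0.033 lower than with C/EBPalpha and 1.01 ± 0.033 lower than with IRF8. Srebf1 read -0.52 and -0.69 with empty vectors, -1.58 and -1.55 with C/EBPalpha, -0.91 and -0.87 with IRF8 and -1.57 and -1.80 with both factors. It fell by 0.96 ± 0.10 with C/EBPalpha and by 1.09 ± 0.10 with both factors, which did not differ beyond the threshold from each other (-0.12 ± 0.10). Its fall of 0.29 ± 0.10 with IRF8 was not called, among other settings, with array-median scaling (-0.25) or without empty-vector array 1 (-0.20), IRF8 array 1 (-0.27) or IRF8 array 2 (-0.30), and its interaction of 0.16 ± 0.14 did not pass.

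Srebf2 read 1.89 and 1.83 with empty vectors, 1.40 and 1.34 with C/EBPalpha, 2.05 and 2.03 with IRF8 and 1.78 and 1.69 with both factors. It fell by 0.49 ± 0.046 with C/EBPalpha (a second probe had -0.95), rose by 0.18 ± 0.046 with IRF8, and fell by 0.13 ± 0.046 with both factors, a sign that turned to 0.089 with quantile normalization, 0.16 with the percentile over detected probes and 0.11 in the deposited series values. The Srebf2 rise with IRF8 was not called without empty-vector array 2 (0.15), and its interaction of 0.19 ± 0.065 turned to -0.20 with array-median scaling. Insig2 read 1.27 and 1.30 with empty vectors, 1.58 and 1.54 with C/EBPalpha, 1.37 and 1.28 with IRF8 and 1.85 and 1.81 with both factors. It rose by 0.27 ± 0.046 with C/EBPalpha and by 0.54 ± 0.046 with both factors, but array-median scaling turned these to -0.035 and -0.11, and its interaction of 0.24 ± 0.065 to -0.15. With IRF8 it differed by 0.035 ± 0.046. Insig1 differed by 0.20 ± 0.089, 0.20 ± 0.089 and 0.17 ± 0.089 with C/EBPalpha, IRF8 and both, none passing, with an interaction of -0.22 ± 0.13.

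The cell cycle and neutrophil genes moved with the same groups. All 20 cell cycle genes fell with C/EBPalpha, at a median of -0.97, and all 20 fell with both factors, at -2.45, while 14 fell and 1 rose with IRF8, at -0.20. Of all genes 47.1% were lower with C/EBPalpha, 46.8% with both factors and 25.4% with IRF8. Against C/EBPalpha alone 19 cell cycle genes were lower with both factors and none higher, at -1.51, where 37.9% of all genes were lower. In the interaction 18 of these genes were lower and none higher, at -1.40, where 31.9% of all genes were lower. Their summed scaled signal was 830 to 848 with empty vectors, 451 to 462 with C/EBPalpha, 739 to 749 with IRF8 and 166 to 167 with both. All 9 fitted neutrophil genes rose with C/EBPalpha, at a median of 5.96, and with both factors, at 4.66, and all 9 were lower with both factors than with C/EBPalpha alone, at -2.19. The T and NK genes were not lower in sum with both factors, at 20.8 to 21.2, than with empty vectors, at 19.4 to 20.8. The lists of the other lineages were lower in sum with both factors than with empty vectors. By gene, 2 of 4 fitted B cell genes rose and 1 fell with both factors. Of 2 macrophage genes well above background in at least 1 of these groups 1 rose and 1 fell. The 5 megakaryocyte genes summed to 36.9 to 37.6 with empty vectors, 10.0 to 10.1 with C/EBPalpha, 26.2 to 26.9 with IRF8 and 6.62 to 6.80 with both. The basophil, mast cell and eosinophil genes summed to 36.9 to 37.1, 19.6 to 20.0, 26.0 to 27.4 and 5.18 to 5.27 in the same order. The erythroid genes summed to 8.77 to 8.95, 1.97 to 2.22, 2.76 to 2.78 and 1.91 to 1.94, and 5 macrophage genes to 44.3 to 44.8, 16.9 to 18.3, 68.5 to 69.5 and 32.6 to 32.8, highest with IRF8. The part of these lists in the changes of the lipid genes was not tested.

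Neighbouring genes in 32Dcl.3 cells again included storage and efflux, against a background of 78.8% of all genes called with C/EBPalpha and 84.8% with both factors. With C/EBPalpha 9 of 12 glycerolipid genes rose and 2 fell, where 31.6% of all genes were higher: Mgll, a monoglyceride lipase, rose by 5.07 ± 0.29, Dgat2 by 3.76 ± 0.057 and Plin2, a lipid droplet coat protein, by 3.13 ± 0.030. With both factors 9 rose and 2 fell, where 38% of all genes were higher, Plin2 by 3.07 ± 0.030, and Dgat2 had an interaction of -2.80 ± 0.081. All 5 fitted genes of LXR signalling and efflux rose with both factors, among them Abcg1 by 0.94 ± 0.029, which had fallen by 0.83 ± 0.029 with C/EBPalpha, and Nr1h3 was at least 8.03-fold higher. SREBP processing had 1 of 10 genes higher and 7 lower with C/EBPalpha, where the proteases Mbtps2 and Mbtps1, which cut SREBPs, fell by 1.18 ± 0.12 and 0.88 ± 0.034, and 3 higher and 6 lower with both factors.

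Other enzymes outside the list fell with the arms, where 46.8% of all genes were lower with both factors, 47.1% with C/EBPalpha, 37.9% with both against C/EBPalpha alone and 25.4% with IRF8. With both factors 11 of 12 further synthesis enzymes fell and 1 rose, led by the carboxylase Acacb at -2.59 ± 0.11 and the dehydratase Hacd3 at -1.90 ± 0.031, and against C/EBPalpha alone 12 of 12 fell, with Acss2, which makes acetyl-CoA from acetate, at -1.42 ± 0.065. All 10 isoprenoid branch genes fell with both factors, Pdss1 by 3.01 ± 0.061 and the farnesyltransferase subunit Fntb by 1.56 ± 0.11, and 8 fell and 1 rose with C/EBPalpha. Sterol uptake and transport had 6 of 10 genes higher and 4 lower with both factors, Lipa, the lysosomal lipase, rising by 1.54 ± 0.071 and Stard4 falling by 1.22 ± 0.033. Fatty acid oxidation had 3 of 12 higher and 8 lower with both factors, Hadhb falling by 1.05 ± 0.046, and Cpt1a rose by 0.61 ± 0.034 with C/EBPalpha. With IRF8 alone 2 of 12 further synthesis enzymes rose and 9 fell, and none of 10 isoprenoid genes rose and 5 fell.

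Arm levels on single arrays put these comparisons on one scale, each gene taken from its mean over the 8 arrays of its system and the arm's median from that of all genes. In 32Dcl.3 cells the sterol arm stood at -0.0017 and 0.044 with empty vectors, 0.24 and 0.35 with C/EBPalpha, -0.055 and -0.040 with IRF8, and -0.36 and -0.38 with both factors. It was highest with C/EBPalpha and lowest with both, and no 2 groups overlapped. The fatty acid arm stood at 0.47 and 0.45, 0.078 and 0.077, 0.061 and 0.057, and -0.40 and -0.39 in the same order. It was highest with empty vectors, where the sterol arm was not, and the C/EBPalpha and IRF8 arrays were close together.

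In progenitors the sterol arm stood at 0.11 and 0.18 in WT MDPs, -0.034 and -0.054 in Irf8KO MDPs, -0.015 and -0.018 in WT cMoPs, and -0.0080 and -0.019 in Irf8KO cMoPs. The fatty acid arm stood at 0.31 and 0.24 in WT MDPs and -0.054 and -0.046 in Irf8KO MDPs, and at -0.046 and -0.013 in WT cMoPs and -0.18 and -0.21 in Irf8KO cMoPs. Both arms were lower on the Irf8KO than on the WT arrays of MDPs, whereas in cMoPs only the fatty acid arm kept the genotypes apart. No test was made of these levels.

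**Figure D5:**
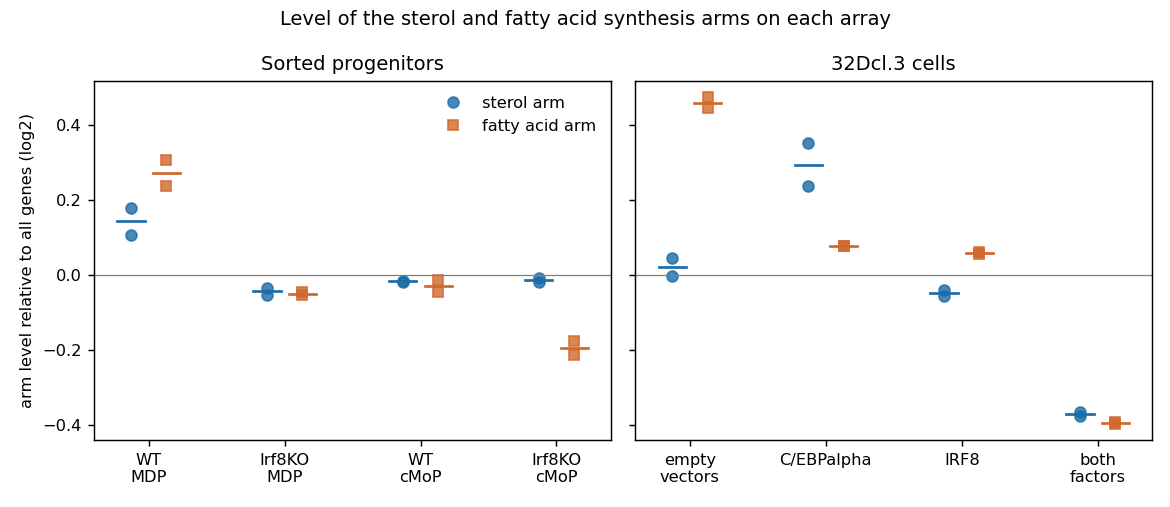
Level of the sterol arm (blue circles) and the fatty acid arm (orange squares) on each array, as a log2 distance from all genes, in sorted progenitors (left) and 32Dcl.3 cells (right); lines are means of 2 arrays. With empty vectors the fatty acid arm lies above the sterol arm, with C/EBPalpha below it, and with both factors the 2 arms lie together and lowest.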

How the data were processed

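Microarray intensity was measured on 16 one-colour Agilent arrays of one design. Background was subtracted and each array detrended by the scanner software (Agilent Feature Extraction 10.7.3.1, protocol GE1_107_Sep09), per the file headers, and the deposited processed signal is an intensity not scaled between arrays. The authors' series values, also an intensity, were scaled further by a method not given in the sources used here.

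Control and outlier spots were dropped and spots of a probe averaged. The signal was divided by the array's 75th percentile and log2 taken. A gene took its brightest probe, and was kept where more than 0.5 of the probe's spots were flagged well above background on both arrays of at least 1 group. Group means were fitted with limma 3.58.1 (R 4.3.3) over the 8 arrays of a system, with 4 residual degrees of freedom and an intensity trend, and p-values were adjusted by Benjamini-Hochberg over all genes of a comparison, with a threshold of 0.05. The script was tested on simulated data. Probes were named through their accession and symbol in RefSeq.

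In each comparison up to 6 called members of each arm with the largest change were named, with the 5 regulators always, and up to 3 called genes of each neighbouring list. The members and lists were chosen with earlier results of these data known. Alternatives were other scalings (array median, percentile over detected probes, quantile, the deposited series values), normexp background correction on median spot signals (offset 50), other filters, the mean over probes, other spread models, a replicate block, and leaving out each array. Not every named gene of the neighbouring lists is reported here.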

Additional observations from a re-analysis of the deposited data

Results flagged for a closer look

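The effect of Irf8 loss differed between cMoPs and MDPs, by a test of the difference itself, for 10 of 34 fitted members. Of all genes 24.9% were called in that test, and stage and slide cannot be told apart. The cMoP minus MDP differences were Lss 1.38, Sc5d 0.63, Fdps 0.56, Ebp -0.32, Hmgcs1 -0.28, Scd2 1.11, Elovl6 -0.66, Elovl5 0.40, Acsl1 0.24 and Scap 0.17 on the log2 scale. Lss was not well above background in Irf8KO MDPs, and normexp correction ended the Lss and Hmgcs1 calls. With array-median scaling the Elovl5 and Acsl1 calls ended and Scap turned sign.

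The effect of IRF8 differed with and without C/EBPalpha, by the interaction test, for 15 of the members named. Of all 35 fitted members 4 were higher and 24 lower. Of all genes 55.7% were called, 23.8% higher and 31.9% lower. The interactions were Tm7sf2 -0.93, Fdps -0.89, Dhcr7 -0.89, Sqle -0.71, Nsdhl -0.67, Fdft1 -0.58, Acsl1 -1.75, Fads2 -0.79, Acaca -0.76, Scd2 0.70, Elovl6 -0.66, Acly -0.44, Insig2 0.24, Scap -0.47 and Srebf2 0.19 on the log2 scale. Fdft1 turned sign in the mean over its probes, and the Fads2 call ended with normexp correction. Insig2 and Srebf2 turned sign with array-median scaling, and other probes of Acaca and Acly gave smaller interactions.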

How the results depend on the processing

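Of the values of named members under the alternatives, 2426 kept direction and call, 85 lost the call, 24 gained it and 57 turned sign. Of the arm medians (here less the median of all genes) and counts of members called, 385 moved by less than the spread or the 1.5-fold limit and 83 by more. The cause was not tested. Values that turned sign, and arm medians and counts that moved, follow by setting. Array-median scaling gave for Irf8KO MDPs Srebf1 -0.062, for Irf8KO cMoPs members called 28, Insig2 -0.18 and Srebf1 -0.29, for the stage difference Scap -0.053, for C/EBPalpha against empty vectors Insig1 -0.11 and Insig2 -0.035. That choice gave for both factors against empty vectors Insig1 -0.48 and Insig2 -0.11, for both against C/EBPalpha Insig2 -0.076, for both against IRF8 Insig2 -0.19, for IRF8 against C/EBPalpha Insig1 0.34 and Insig2 0.11. Further values were for the interaction Insig2 -0.15, Srebf1 -0.22 and Srebf2 -0.20. The percentile over detected probes gave for Irf8KO cMoPs Insig1 0.034, for the stage difference Srebf1 0.020, for both factors against empty vectors Srebf2 0.16, for both against C/EBPalpha Insig1 0.055. That choice gave for both against IRF8 Insig1 0.27. Quantile normalization gave for Irf8KO MDPs Srebf1 -0.037, for Irf8KO cMoPs Srebf1 -0.063, for the stage difference fatty acid median 0.31, for C/EBPalpha against empty vectors sterol median 0.41 and fatty acid median -0.35. Under it came for both factors against empty vectors sterol median -0.16, fatty acid median -0.48, Insig1 -0.059 and Srebf2 0.089, for both against C/EBPalpha fatty acid median -0.51, for both against IRF8 sterol median 0.048 and fatty acid median -0.11, for IRF8 against C/EBPalpha fatty acid median -0.041 and Insig1 0.13. Normexp background correction gave for Irf8KO MDPs fatty acid median -0.27 and Srebf1 -0.060, for Irf8KO cMoPs Insig1 0.088, for the stage difference sterol median 0.047, fatty acid median 0.13 and Srebf1 0.14, for C/EBPalpha against empty vectors sterol median 0.15 and fatty acid median -0.67. Further values were for IRF8 against empty vectors fatty acid median -0.40 and Insig2 -0.040, for both factors against empty vectors fatty acid median -1.08 and Hsd17b7 0.87, for both against C/EBPalpha fatty acid median -0.53, Hsd17b7 0.15 and Insig1 0.13, for both against IRF8 sterol median -0.35, fatty acid median -0.64, Hsd17b7 0.67 and Insig1 0.22. Under it came for IRF8 against C/EBPalpha sterol median -0.29 and fatty acid median 0.22, for the interaction fatty acid median -0.21. The deposited series values gave for C/EBPalpha against empty vectors sterol median 0.45 and fatty acid median -0.36, for IRF8 against empty vectors fatty acid median -0.31 and Insig2 -0.037, for both factors against empty vectors sterol median -0.16, fatty acid median -0.48 and Srebf2 0.11, for both against C/EBPalpha fatty acid median -0.45. Further values were for both against IRF8 sterol median -0.018 and fatty acid median -0.082, for IRF8 against C/EBPalpha fatty acid median -0.035, for the interaction Srebf1 -0.018. Testing without the filter on dim probes gave for Irf8KO MDPs sterol median -0.22 and fatty acid median -0.47, for Irf8KO cMoPs sterol median -0.20 and fatty acid median -0.20, for C/EBPalpha against empty vectors sterol median -0.044 and fatty acid median -0.74, for IRF8 against empty vectors sterol median -0.12 and fatty acid median -0.41. That choice gave for both factors against empty vectors sterol median -1.0 and fatty acid median -1.29, for both against C/EBPalpha sterol median -0.80 and fatty acid median -0.77, for both against IRF8 sterol median -0.67 and fatty acid median -0.88, for IRF8 against C/EBPalpha sterol median -0.13 and fatty acid median 0.42. Further values were for the interaction sterol median -0.64 and fatty acid median -0.38. Keeping genes well above background on all 8 arrays gave for Irf8KO cMoPs sterol median -0.049, for C/EBPalpha against empty vectors sterol median 0.39 and fatty acid median -0.49, for both factors against empty vectors sterol median -0.33 and fatty acid median -0.71, for both against C/EBPalpha fatty acid median -0.53. That choice gave for both against IRF8 sterol median -0.048 and fatty acid median -0.33, for IRF8 against C/EBPalpha fatty acid median 0.071. The mean over probes gave for Irf8KO cMoPs Srebf2 0.034, for the stage difference fatty acid median 0.31, for C/EBPalpha against empty vectors fatty acid median -0.55, for IRF8 against empty vectors fatty acid median -0.32 and Insig2 -0.057. Under it came for both against C/EBPalpha fatty acid median -0.51, for both against IRF8 fatty acid median -0.37, for IRF8 against C/EBPalpha fatty acid median 0.046, for the interaction Fdft1 0.56. Leaving out 1 array at a time gave for Irf8KO MDPs sterol median -0.15 to -0.099, fatty acid median -0.38 to -0.26 and Srebf1 -0.27 to 0.34, for Irf8KO cMoPs Insig1 -0.051 to 0.039, Srebf1 -0.12 to 0.16 and Insig2 -0.045 to 0.31, for the stage difference sterol median 0.070 to 0.17, Srebf1 -0.32 to 0.29 and Insig2 -0.34 to 0.013. It ran, over the arrays left out, for C/EBPalpha against empty vectors fatty acid median -0.55 to -0.51 and sterol median 0.29 to 0.42, for IRF8 against empty vectors fatty acid median -0.35 to -0.32 and Insig2 -0.0093 to 0.080, for both factors against empty vectors fatty acid median -0.78 to -0.75. Over single arrays left out it ran for both against C/EBPalpha fatty acid median -0.57 to -0.53 and Insig1 -0.072 to 0.016, for both against IRF8 Insig1 -0.066 to 0.022, for IRF8 against C/EBPalpha sterol median -0.51 to -0.31, Insig1 -0.026 to 0.013 and fatty acid median 0.079 to 0.12.

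The replicate numbers did not pair the arrays: deviations of same-numbered arrays correlated at -0.065 to 0.071 over 12 pairs. With the replicate number as a block 6098 genes were called in MDPs, 6415 in cMoPs and 7381 in the interaction, where 16 sterol genes were lower. A fit of only the 2 groups compared could not be run for the stage difference or the interaction. With 2 arrays a group, precision is limited, and dim genes such as Lss and Hsd17b7 lie near the background.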
